A study of Pagiophloeus tsushimanus with 15 samples.

Results

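Whole-body RNA was compared between larvae of the weevil Pagiophloeus tsushimanus feeding on diet treated with D-camphor at 41 mg/g and larvae feeding on diet treated with D-camphor at 17 mg/g. The members were the 3 libraries of each dose, 6 of the 15 libraries in the series, and they were taken by the treatment in the sample labels. The 3 libraries from untreated larvae, whose label does not describe their diet, served only as a level against which both doses can be read. The remaining 6 libraries came from larvae on an additive labelled EO at 10 or 30 mg/g. The labels give neither the age nor the stage of the larvae, nor how long they fed, nor whether a library is 1 animal or a pool, so every p-value measures only the spread between these libraries. Of 34486 assembled unigenes, 12832 had a mean of at least 1 TPM (a unit of transcript abundance scaled for transcript length and to an equal total per library) over the 6 libraries and were tested. Unigenes are named by their identifier and by the similar protein of another species that the table gives, which is not a measured function.

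D-camphor is a volatile monoterpenoid ketone made by camphor trees, and it repels or poisons many insects. Insects handle such compounds with cytochrome P450 enzymes, which oxidise them, with glutathione S-transferases and UDP-glycosyltransferases, which attach a water-soluble group, and with ABC transporters, which export the products. The cuticle, a layer of chitin and cuticle proteins laid down by the epidermis, is the outer barrier, and a larva makes a new one at each moult under the control of ecdysone and juvenile hormone. The series title names metabolic and cuticular resistance to host terpenoids as its subject, and the dose step asks which transcripts differ between a higher and a lower amount of 1 of them.

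The 6 libraries were alike in breadth. Between 12128 and 13348 unigenes lay above 1 TPM at 41 mg/g, and between 12475 and 13488 at 17 mg/g. The top 10 unigenes by level took up 22.4% to 24.7% of all TPM at 41 mg/g and 19.5% to 22.1% at 17 mg/g. The first principal component of the tested unigenes held 36.6% of the variance, with scores of −20.3, −47 and −21.3 at 41 mg/g and 32.1, 18.7 and 37.8 at 17 mg/g. The doses thus lay on opposite sides, with replicate 2 at 41 mg/g farthest out. The second component held 22.9% and set replicate 1 at 41 mg/g (37.1) and replicate 2 at 17 mg/g (31.2), the lowest of their dose in summed cuticle transcripts, apart from the other 4 libraries (−28.5 to −11.5). Read depth cannot be recovered from TPM, so it is unknown.

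Few single unigenes passed the test between the doses. Limma with Benjamini-Hochberg adjustment over all 12832 tested unigenes called 18 of them (0.14%) at an adjusted p under 0.05, of which 9 were higher (0.0701%) and 9 lower (0.0701%) at 41 mg/g. The rises were steep and lay in proteins of unknown role, while 8 of the 9 falls were between 2-fold and 4-fold and most lay in unigenes matched to animals other than beetles. Without adjustment, 1850 unigenes (14.4%) had a p under 0.05, 519 higher (4.04%) and 1331 lower (10.4%). The libraries of the doses did not overlap in 2720 unigenes (21.2%), 733 higher (5.71%) and 1987 lower (15.5%). Rescaling the libraries by a median of ratios changed that balance. Among unigenes with an unadjusted p under 0.05, the share that were higher at 41 mg/g was 28.1% as deposited and 48.4% after rescaling, so the excess of lower values rests on the scaling. Large differences were mostly upward at this unadjusted threshold, with 65 unigenes at least 4-fold higher and 10 at least 4-fold lower on the log2(TPM + 1) scale. The median log2 difference over all tested unigenes was −0.07. The calls were fragile: leaving out 1 library at a time gave between 0 and 87 of them, a fit to all 15 libraries called 4, of which 1 was among the 18, and a block for replicate number left 0, with a lowest adjusted p of 0.173.

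**Figure D1:**
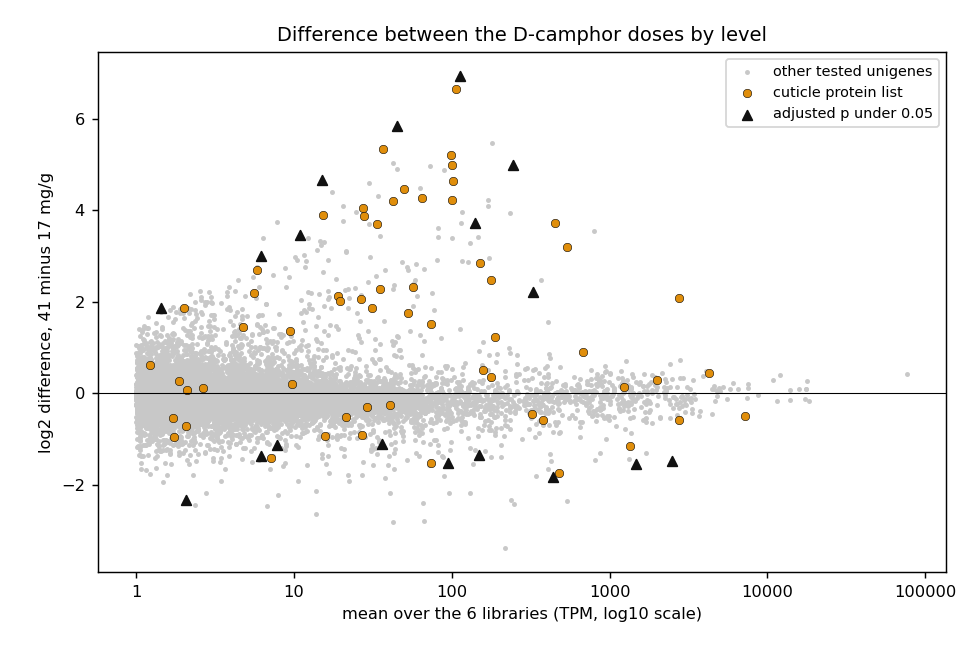
Difference between D-camphor at 41 and 17 mg/g (log2, vertical) against the mean TPM of the 6 libraries (horizontal, log scale) for the 12832 tested unigenes. Black triangles are the 18 unigenes with an adjusted p under 0.05 and orange points the 59 tested cuticle protein unigenes, most of which lie above 0.

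The steepest rise was in TRINITY_DN3631_c0_g1, described as a skin secretory protein xP2-like of the rice weevil Sitophilus oryzae. It stood at 248, 345 and 81.7 TPM at 41 mg/g, against 0.04, 1.89 and 0.28 TPM at 17 mg/g, a log2 difference of 6.94 (SE 0.64, limma adjusted p = 0.0387). Every library at 41 mg/g lay far above every library at 17 mg/g. Untreated larvae did not share 1 level, with 0, 271 and 45.8 TPM, so their range ran from the level at 17 mg/g to that at 41 mg/g. A histidine-rich protein of unknown role, TRINITY_DN5640_c0_g1, behaved alike. It stood at 36.2, 161 and 71.7 TPM at 41 mg/g, against 0.08, 0.78 and 0.24 TPM at 17 mg/g (log2 difference 5.83, SE 0.54, adjusted p = 0.0387), and at 0, 35.5 and 2.51 TPM in untreated larvae. In both unigenes replicate 2 was the highest library at 41 mg/g and also the highest among untreated larvae.

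Unigenes matched to proteins of the mountain pine beetle Dendroctonus ponderosae that carry no functional name made up 5 more of the rises. TRINITY_DN38411_c0_g1 stood at 278, 781 and 365 TPM at 41 mg/g, against 11.97, 21.5 and 7.40 TPM at 17 mg/g (log2 difference 5.0, SE 0.50, adjusted p = 0.0474). TRINITY_DN3223_c0_g1 stood at 146, 404 and 239 TPM at 41 mg/g, against 21.4, 15.1 and 16.2 TPM at 17 mg/g (3.72, SE 0.37, adjusted p = 0.0474). These were the more abundant of the 5, and in both the lowest library at 41 mg/g was several times the highest at 17 mg/g. The other three were scarcer. TRINITY_DN10321_c0_g1 rose by 4.66, TRINITY_DN3771_c0_g1 by 3.0 and TRINITY_DN21496_c0_g1 by 1.86 on the log2 scale, each with an adjusted p of 0.0387. The last of them reached only 3.04, 2.94 and 2.45 TPM at 41 mg/g, against 0.06, 0.08 and 0 TPM at 17 mg/g, and it was the 1 unigene also called in the fit to all 15 libraries, although its call was lost in each of the 6 fits that left out 1 library.

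The remaining rises were in unigenes without any description. TRINITY_DN4040_c0_g1 stood at 20.9, 17.6 and 24.2 TPM at 41 mg/g, against 1.21, 0.88 and 0.90 TPM at 17 mg/g (log2 difference 3.45, SE 0.14, adjusted p = 0.0044). This was the smallest adjusted p of the comparison, and the call held in 5 of the 6 fits that left out 1 library. Untreated larvae had 0, 0.97 and 2.02 TPM of it, so all 3 lay below every library at 41 mg/g. TRINITY_DN3890_c0_g1 stood at 407, 662 and 541 TPM at 41 mg/g, against 131, 112 and 96.1 TPM at 17 mg/g (2.22, SE 0.21, adjusted p = 0.042). Untreated larvae had 31.9, 83.4 and 234 TPM, all below 41 mg/g.

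Across the 9 rises, the highest untreated library lay above all 3 libraries at 17 mg/g in 9, and the untreated mean lay between the dose means in 8. In 3 of the 9 the highest untreated library reached the range of 41 mg/g. Replicate 2 was the highest library at 41 mg/g in 6 of the 9 and the highest untreated library in 6, and replicate 1 was the lowest untreated library in all 9. In 7 of the 9 the lowest untreated library also lay below all 3 at 17 mg/g, so untreated larvae mostly spanned the level at 17 mg/g. The rises were picked for their distance between the doses, which favours an untreated mean between them. No test against untreated larvae was made.

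**Figure D2:**
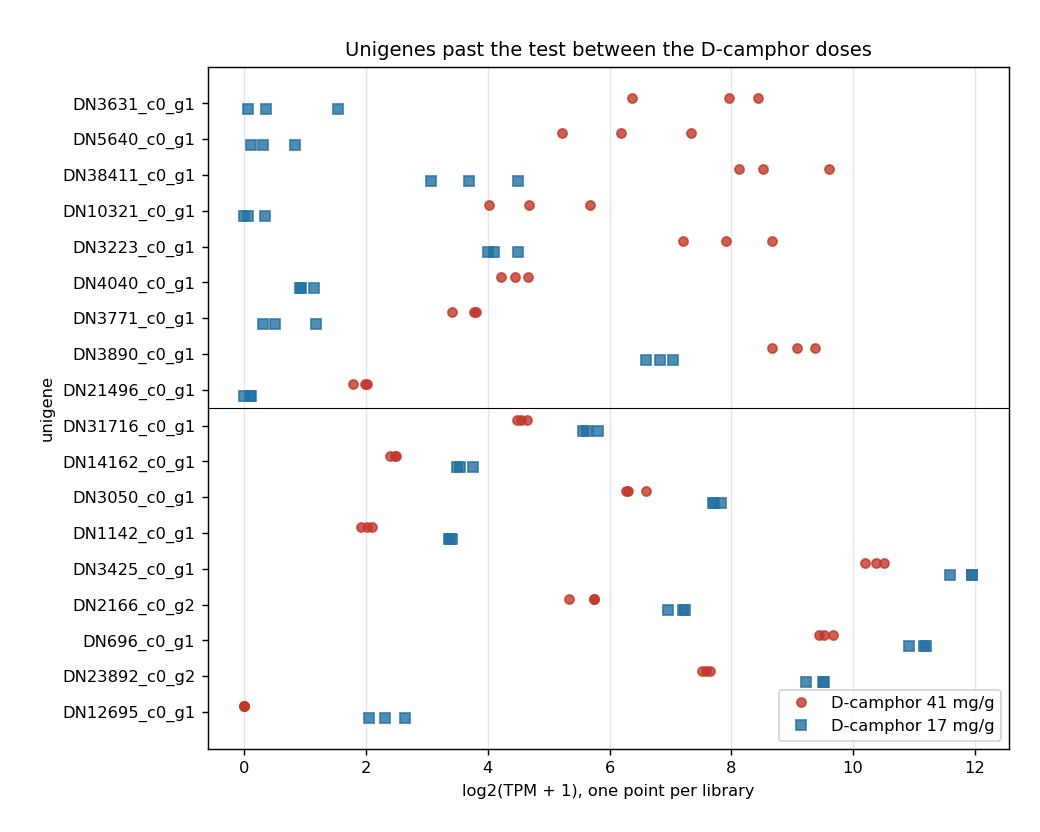
Level of the 18 called unigenes (log2(TPM + 1), horizontal) in each library at 41 mg/g (red circles) and 17 mg/g (blue squares), with the prefix TRINITY left off the names. The 9 unigenes above the line rose and the 9 below it fell, and in none do the points of the doses overlap.

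The falls were tight. TRINITY_DN23892_c0_g2, matched to a hypothetical protein of the mayfly Ephemera danica, stood at 190, 199 and 182 TPM at 41 mg/g, against 601, 734 and 723 TPM at 17 mg/g (log2 difference −1.84, SE 0.11, adjusted p = 0.0188). The most abundant was TRINITY_DN3425_c0_g1, matched to a hypothetical protein of the ant Trachymyrmex cornetzi, with 1454, 1178 and 1324 TPM at 41 mg/g, against 3092, 3980 and 3986 TPM at 17 mg/g (−1.48, SE 0.15, adjusted p = 0.048). Within each dose the replicates of these unigenes lay close together and the doses were far apart. Untreated larvae lay nearer the higher dose, with 343, 247 and 232 TPM of TRINITY_DN23892_c0_g2 and 1827, 1528 and 1297 TPM of TRINITY_DN3425_c0_g1.

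TRINITY_DN696_c0_g1, matched to the aphid Cinara cedri, stood at 735, 690 and 813 TPM at 41 mg/g, against 1931, 2336 and 2301 TPM at 17 mg/g (log2 difference −1.55, SE 0.12, adjusted p = 0.0387). Its level ran with that of TRINITY_DN3425_c0_g1 and was 0.505 to 0.773 times as high in all 15 libraries. The level of TRINITY_DN23892_c0_g2 was 0.224 to 0.421 times that of TRINITY_DN696_c0_g1 in the same libraries. TRINITY_DN2166_c0_g2, matched to the nematode Trichinella nelsoni, fell by 1.53 and TRINITY_DN3050_c0_g1, matched to the springtail Folsomia candida, fell by 1.36 on the log2 scale, and the level of TRINITY_DN2166_c0_g2 was 0.447 to 0.714 times that of TRINITY_DN3050_c0_g1 in the 15 libraries. Unigenes that run together in this way may share reads or come from 1 source, which was not tested, so their falls are not counted as independent. TRINITY_DN1142_c0_g1 had 2.78, 3.04 and 3.26 TPM at 41 mg/g, against 9.36, 9.23 and 9.68 TPM at 17 mg/g (−1.37, SE 0.09, adjusted p = 0.0188). TRINITY_DN14162_c0_g1 fell by 1.14 and TRINITY_DN31716_c0_g1, the single fall with a beetle match, fell by 1.11. TRINITY_DN12695_c0_g1, matched to a flatworm, was listed at 0 in all 3 libraries at 41 mg/g and at 3.15, 3.94 and 5.23 TPM at 17 mg/g, and untreated larvae had 0.97, 3.85 and 2.95 TPM.

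Matches to other animals were thus common among the falls, at 8 of 9, while 1108 of the 12832 tested unigenes had such a match. Several of these 8 run together, as given above, so they are not independent and no excess is drawn from the count. As a class these 1108 did not stand out, with 37 (3.34%) higher and 121 (10.9%) lower at an unadjusted p under 0.05, close to the 4.04% and 10.4% of all tested unigenes. The untreated mean lay below the mean at 17 mg/g and above the mean at 41 mg/g in all 9 falls. The falls too were picked for their distance between the doses, which favours an untreated mean between them.

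Cuticle protein unigenes were the group with the largest differences, and they varied as much between replicates as between doses. The table holds 75, of which 59 passed the filter on low values, which a unigene high at either dose alone can pass. None of the 59 was called. At an unadjusted p under 0.05, 14 (23.7%) were higher and 2 (3.39%) were lower at 41 mg/g, beside 4.04% and 10.4% of all tested unigenes, and these counts were 14 and 2 after rescaling as well. They moved with single libraries, to 25 higher and 2 lower without replicate 1, 11 and 7 without replicate 2 and 9 and 2 without replicate 3 at 41 mg/g, and the fit to all 15 libraries gave 4 higher and 0 lower. The median log2 difference was 1.44, beside −0.07 over all tested unigenes. In whole bodies more cells of a type and more transcript per cell, or fewer and less, cannot be told apart.

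Of the 14 higher members, 9 averaged under 100 TPM and 5 between 100 and 1000 TPM over the 6 libraries, and none of the 7 members at 1000 TPM or more was among them. TRINITY_DN1987_c0_g3, a larval cuticle protein III/IV-like unigene, stood at 23.1, 491 and 124 TPM at 41 mg/g, against 0.16, 0 and 0.26 TPM at 17 mg/g (log2 difference 6.65, SE 1.04, limma adjusted p = 0.114). The cuticle protein 7-like unigene TRINITY_DN39597_c0_g1 stood at 7.25, 160 and 53.7 TPM at 41 mg/g and was listed at 0, 0 and 0.10 TPM at 17 mg/g (5.34, SE 1.03, adjusted p = 0.154). In both, replicate 2 at 41 mg/g was far above replicate 1 of the same dose, and replicate 1 still lay above every library at 17 mg/g. In untreated larvae neither exceeded 7.55 TPM.

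Further members without overlap were named after their values were seen. The larval cuticle protein LCP-17-like unigene TRINITY_DN5268_c0_g1 stood at 164, 1263 and 1138 TPM at 41 mg/g, against 48.7, 49.4 and 39.8 TPM at 17 mg/g (log2 difference 3.73, SE 0.79, adjusted p = 0.17). The endocuticle structural glycoprotein SgAbd-8 unigene TRINITY_DN6405_c0_g1 stood at 25.4, 58.3 and 6.63 TPM at 41 mg/g, against 0.06, 1.58 and 0.32 TPM at 17 mg/g (3.90, SE 0.78, adjusted p = 0.158). Replicate 2 was the highest library at 41 mg/g in both, while the lowest was replicate 1 in the first and replicate 3 in the second, and 1 untreated library reached 263 TPM of TRINITY_DN5268_c0_g1 and 30.5 TPM of TRINITY_DN6405_c0_g1.

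The 59 unigenes fell into several patterns over the 6 libraries, described here after their values were seen. The share of all tested unigenes is given for the first pattern and was not counted for the others. In 14 (5.71% of all tested unigenes did so) all 3 libraries at 41 mg/g lay above all 3 at 17 mg/g. In 15 more, replicates 2 and 3 at 41 mg/g lay above every library at 17 mg/g while replicate 1 did not. An example is TRINITY_DN7173_c0_g1, a cuticle protein 67-like unigene, with 0.24, 95.03 and 102 TPM at 41 mg/g, against 0.75, 0.13 and 1.89 TPM at 17 mg/g. In 20 others, replicate 2 at 41 mg/g was high and replicates 1 and 3 at 17 mg/g were both above the remaining libraries at 41 mg/g. The most abundant cuticle unigene belonged here: TRINITY_DN36604_c1_g1, an endocuticle structural glycoprotein SgAbd-3-like unigene, stood at 2481, 13736 and 3558 TPM at 41 mg/g, against 8117, 3441 and 12156 TPM at 17 mg/g (log2 difference −0.49, SE 0.76, adjusted p = 0.811). The SgAbd proteins take their name from the abdominal cuticle of the locust Schistocerca gregaria.

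**Figure D3:**
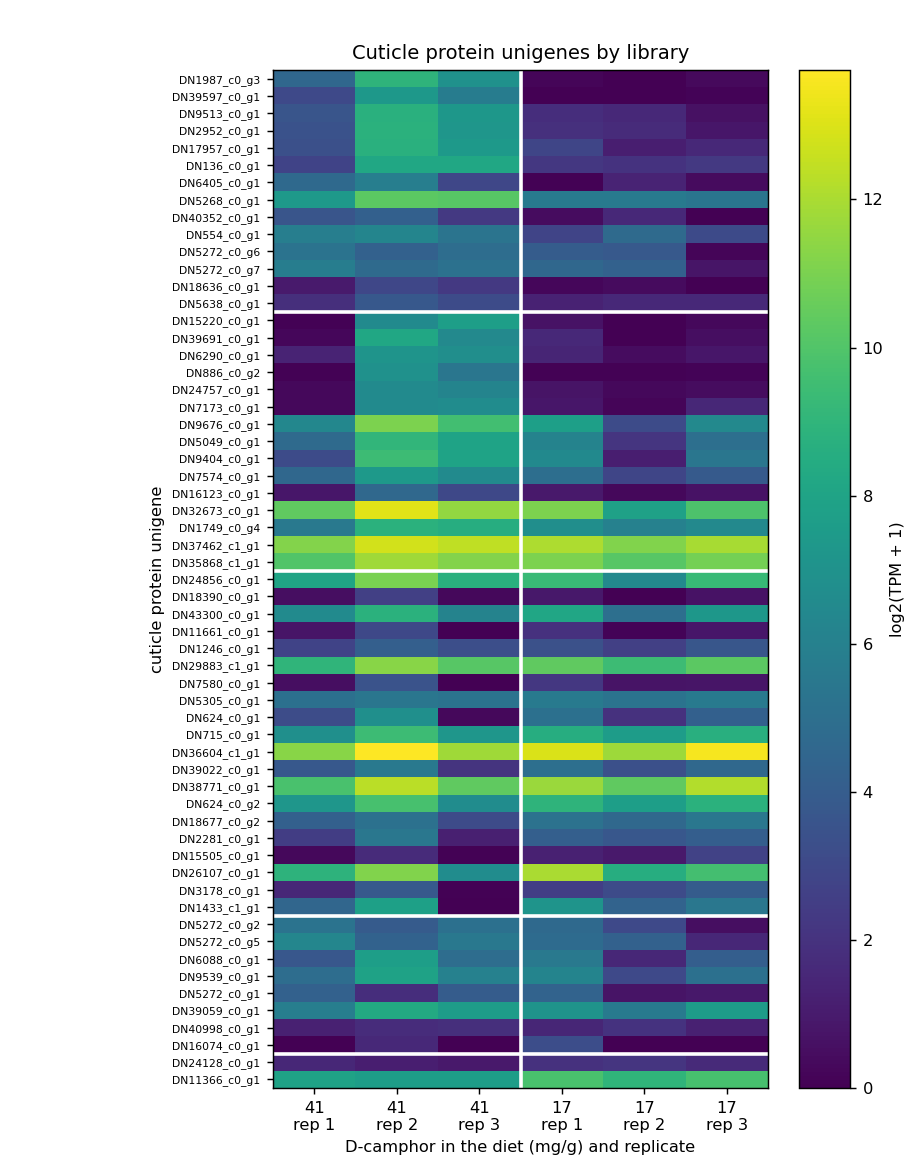
Level of the 59 tested cuticle protein unigenes (rows, log2(TPM + 1), colour scale) in the libraries at 41 mg/g (left 3 columns) and 17 mg/g (right 3 columns), with the prefix TRINITY left off the names. From the top, white lines set apart the 14 unigenes with all libraries at 41 mg/g above those at 17 mg/g, the 15 high in replicates 2 and 3 at 41 mg/g, the 20 high in replicate 2 at 41 mg/g and in replicates 1 and 3 at 17 mg/g, 8 others and the 2 lower at 41 mg/g.

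Summed over the 75 unigenes of the list, cuticle protein transcripts made up 10907, 57292 and 22978 TPM at 41 mg/g, against 29270, 10900 and 28849 TPM at 17 mg/g. The sums overlapped, since replicate 1 at 41 mg/g and replicate 2 at 17 mg/g were both low and nearly equal. The mean difference of 7386 TPM between the doses turned to −6064 TPM without replicate 2 at 41 mg/g. That library was the highest of the 6 in 42 of the 59 unigenes. How often it was the highest over all tested unigenes was not counted, so this is not read as particular to cuticle unigenes. Without that library the median log2 difference was 0.70. It was 0.73 without replicate 2 and 0.90 without replicate 3 at 17 mg/g. Untreated larvae had 8010, 4252 and 7493 TPM, below every D-camphor library. Their mean was below both dose means in 39 of the 59 unigenes. The 59 passed a filter on the D-camphor libraries alone, which favours unigenes low in untreated larvae, so nothing is drawn from that count.

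The 2 cuticle unigenes lower at 41 mg/g were endocuticle glycoproteins. TRINITY_DN11366_c0_g1, described as SgAbd-3-like, stood at 237, 203 and 203 TPM at 41 mg/g, against 880, 504 and 861 TPM at 17 mg/g (log2 difference −1.76, SE 0.24, adjusted p = 0.0821). It was tight within the higher dose and missed the threshold. TRINITY_DN24128_c0_g1, an ABD-5-like unigene named after its values were seen, was at 1.86, 1.21 and 0.89 TPM at 41 mg/g, against 2.87, 3.39 and 2.12 TPM at 17 mg/g.

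Among chitin, peritrophic matrix and tanning unigenes none of 32 tested was called, and the median log2 difference was 0.24. At an unadjusted p under 0.05, 4 (12.5%) were higher and 3 (9.38%) lower, beside 4.04% and 10.4% of all tested unigenes. After rescaling 6 (18.8%) were higher and 1 (3.12%) lower, beside 6.62% and 7.05%, and the median was 0.32. The peritrophic matrix lines the insect gut, and peritrophins bind its chitin. The peritrophin-1-like unigene TRINITY_DN3670_c0_g1, named after its values were seen, stood at 92.4, 194 and 80.2 TPM at 41 mg/g, against 25.5, 37.3 and 32.7 TPM at 17 mg/g (log2 difference 1.81, SE 0.35, adjusted p = 0.154). The mucin-like unigenes, whose proteins are rich in repeats, differed in direction. TRINITY_DN8184_c0_g1, mucin-6-like, stood at 3.35, 6.32 and 6.90 TPM at 41 mg/g, against 0.62, 0.40 and 0.39 TPM at 17 mg/g (2.11, SE 0.25, adjusted p = 0.0689). TRINITY_DN1323_c1_g1, mucin-17-like, stood at 39.9, 34.0 and 41.1 TPM at 41 mg/g, against 74.3, 76.4 and 84.7 TPM at 17 mg/g (−1.02, SE 0.11, adjusted p = 0.0566). Neither overlapped between the doses.

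Juvenile hormone unigenes had the lowest median of the lists. Of 22 tested unigenes described as juvenile hormone epoxide hydrolase, which inactivates juvenile hormone, or farnesol dehydrogenase, which acts on its precursor, 2 had a difference above 0, and the median was −0.40. None was called, while 6 (27.3%) were lower and 0 higher at an unadjusted p under 0.05, beside 10.4% and 4.04% of all tested unigenes. After rescaling 2 (9.09%) were lower, near the 7.05% of all tested unigenes, 0 were higher and the median was −0.31. The epoxide hydrolase TRINITY_DN7122_c0_g1, named after its values were seen, stood at 620, 388 and 475 TPM at 41 mg/g, against 765, 763 and 605 TPM at 17 mg/g (log2 difference −0.54, SE 0.20, adjusted p = 0.31). The farnesol dehydrogenase-like TRINITY_DN8711_c0_g1 stood at 27.9, 14.0 and 38.1 TPM at 41 mg/g, against 59.1, 62.6 and 43.7 TPM at 17 mg/g (−1.11, SE 0.37, adjusted p = 0.277). Replicate 2 at 41 mg/g was the lowest of the 6 libraries in both, and it was also the library richest in cuticle transcripts. Whether these move together for 1 reason was not tested.

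The ecdysone list held 9 tested unigenes, with 0 called and a median of −0.10. At an unadjusted p under 0.05, 2 (22.2%) were higher and 1 (11.1%) lower, beside 4.04% and 10.4% of all tested unigenes. Rescaling left these 2 counts as they were. Ecdysone 20-monooxygenase makes the active moulting hormone, and TRINITY_DN22851_c0_g1, described as that enzyme, was at 31.7, 22.8 and 27.3 TPM at 41 mg/g, against 34.5, 38.0 and 37.4 TPM at 17 mg/g (log2 difference −0.42, adjusted p = 0.268). Of the 2 higher members, ecdysone-induced protein 74EF (TRINITY_DN6767_c0_g1) was at 1.62, 4.0 and 2.2 TPM at 41 mg/g, against 1.03, 1.09 and 1.54 TPM at 17 mg/g (0.65, limma adjusted p = 0.343). The other, hormone receptor 4, a receptor of the ecdysone cascade in Drosophila (TRINITY_DN5257_c0_g1), was at 3.67, 1.74 and 1.15 TPM at 41 mg/g, against 0.73, 0.88 and 0.50 TPM at 17 mg/g (0.83, adjusted p = 0.311). The receptor FTZ-F1, which acts late in that cascade (TRINITY_DN1032_c0_g1, named after its values were seen), was at 1.06, 8.22 and 3.08 TPM at 41 mg/g, against 1.19, 1.32 and 1.39 TPM at 17 mg/g, and overlapped between the doses. Its high library was again replicate 2 at 41 mg/g.

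Cytochrome P450 unigenes showed no common direction over the dose step. None of 38 tested was called, and the median log2 difference was −0.19. At an unadjusted p under 0.05, 4 (10.5%) were higher and 5 (13.2%) lower, beside 4.04% and 10.4% of all tested unigenes. After rescaling 4 (10.5%) were higher and 3 (7.89%) lower, beside 6.62% and 7.05%. Of the 4 family 6 unigenes that earlier results of these data had marked as higher on terpenoid diets, 2 stood higher at 41 mg/g without overlap. TRINITY_DN9219_c0_g1, P450 6a2-like, was at 23.8, 18.6 and 15.96 TPM at 41 mg/g, against 7.95, 11.01 and 5.58 TPM at 17 mg/g (log2 difference 1.18, SE 0.25, adjusted p = 0.172). Untreated larvae had 1.36, 0.70 and 1.76 TPM of it, below every D-camphor library. The way these 4 unigenes were chosen favoured low values in untreated larvae. TRINITY_DN1085_c0_g1, P450 6a14, was at 144, 89.1 and 96.2 TPM at 41 mg/g, against 77.0, 71.2 and 66.0 TPM at 17 mg/g (0.59, SE 0.20, adjusted p = 0.283).

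The other two of these family 6 unigenes overlapped between the doses. TRINITY_DN12993_c0_g1, P450 6a20, was at 45.4, 20.4 and 35.0 TPM at 41 mg/g, against 51.0, 37.0 and 41.5 TPM at 17 mg/g, a log2 difference of −0.41 (95% interval −1.15 to 0.32, adjusted p = 0.58). TRINITY_DN32261_c0_g1, P450 6a2-like, was at 34.9, 12.6 and 6.30 TPM at 41 mg/g, against 28.5, 27.3 and 17.4 TPM at 17 mg/g (−0.70, 95% interval −2.13 to 0.72, adjusted p = 0.625). Both intervals hold 0. Untreated larvae had at most 1.28 TPM of TRINITY_DN12993_c0_g1 and 1.16 TPM of TRINITY_DN32261_c0_g1.

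**Figure D4:**
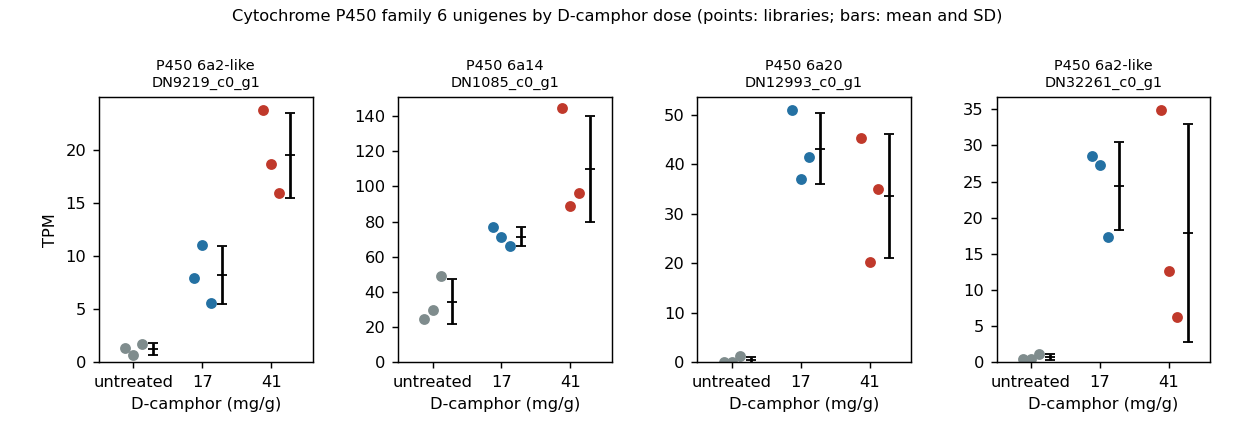
TPM of 4 cytochrome P450 family 6 unigenes in untreated larvae and in larvae on D-camphor at 17 and 41 mg/g, with 1 point per library and bars for the mean and SD (n = 3). TRINITY_DN9219_c0_g1 and TRINITY_DN1085_c0_g1 do not overlap between 17 and 41 mg/g, while TRINITY_DN12993_c0_g1 and TRINITY_DN32261_c0_g1 do. All 4 are lowest in untreated larvae, which their choice favoured, since earlier results of these data had marked them as higher on terpenoid diets.

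Outside these 4, the smallest unadjusted p of the P450 list belonged to TRINITY_DN1473_c0_g1, described as CYP4CV1, with 7.90, 4.01 and 10.01 TPM at 41 mg/g, against 18.9, 29.0 and 30.3 TPM at 17 mg/g (log2 difference −1.75, SE 0.33, adjusted p = 0.153). Untreated larvae had 32.4, 28.6 and 17.9 TPM, the level of the lower dose. The most abundant P450, the 6a2-like TRINITY_DN29625_c0_g1, named after its values were seen, was at 2230, 1706 and 1995 TPM at 41 mg/g, against 1971, 2328 and 1910 TPM at 17 mg/g, a log2 difference of −0.07 (95% interval −0.42 to 0.29).

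The conjugating enzymes and exporters likewise held no call. Among 18 tested glutathione S-transferases 1 (5.56%) was higher and 3 (16.7%) lower at an unadjusted p under 0.05, with a median of −0.05. TRINITY_DN5947_c0_g1, described as glutathione S-transferase e2, was at 49.5, 44.0 and 42.4 TPM at 41 mg/g, against 79.5, 73.5 and 97.8 TPM at 17 mg/g (log2 difference −0.86, SE 0.13, limma adjusted p = 0.114). Untreated larvae, at 52.2, 36.3 and 46.9 TPM, were at the level of the higher dose. Of 14 UDP-glycosyltransferases 2 (14.3%) were higher and 2 (14.3%) lower. After rescaling 1 (5.56%) of the glutathione S-transferases was higher and 2 (11.1%) lower, and of the UDP-glycosyltransferases 2 (14.3%) and 1 (7.14%). All tested unigenes gave 4.04% higher and 10.4% lower as deposited, and 6.62% and 7.05% after rescaling. TRINITY_DN1100_c0_g1, UDP-glucuronosyltransferase 2B15-like, was at 161, 74.0 and 65.7 TPM at 41 mg/g, against 15.3, 27.5 and 9.36 TPM at 17 mg/g (2.47, SE 0.48, adjusted p = 0.155), and at 13.0, 85.6 and 98.3 TPM in untreated larvae. Sums of a list cover all its members in the table, tested or not, and are of TPM as deposited, without rescaling. The UDP-glycosyltransferase sum was 345, 261 and 259 TPM at 41 mg/g, against 198, 230 and 218 TPM at 17 mg/g.

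Of 40 tested ABC transporters 3 (7.5%) were higher and 9 (22.5%) lower at an unadjusted p under 0.05, beside 4.04% and 10.4% of all tested unigenes. After rescaling 5 (12.5%) were higher and 6 (15%) lower, beside 6.62% and 7.05%. The sum was 565, 539 and 516 TPM at 41 mg/g, against 623, 671 and 663 TPM at 17 mg/g, without overlap. TRINITY_DN11765_c0_g1, described as a multidrug resistance-associated protein, a family that exports conjugates, was at 60.5, 37.0 and 56.5 TPM at 41 mg/g, against 95.6, 104 and 109 TPM at 17 mg/g (log2 difference −1.02, SE 0.20, adjusted p = 0.154). Untreated larvae spanned both levels, with 96.7, 50.04 and 58.7 TPM. Of 22 carboxylesterases, hydrolases of esters, 1 (4.55%) was higher and 2 (9.09%) lower, with the same counts after rescaling. Of 20 alcohol, aldehyde and ketone oxidoreductases, the classes that could act on a ketone, 2 (10%) were higher and 1 (5%) lower. After rescaling 3 (15%) were higher and 0 lower. The short-chain dehydrogenase TRINITY_DN7149_c0_g2 was at 29.9, 34.4 and 30.8 TPM at 41 mg/g, against 14.6, 21.5 and 14.1 TPM at 17 mg/g (0.91, SE 0.17, adjusted p = 0.154), while the list's sum ran the other way, at 3806, 2865 and 4081 TPM at 41 mg/g, against 4369, 4170 and 4427 TPM at 17 mg/g.

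Stress lists held no call. Of 40 heat shock proteins, chaperones of damaged proteins, 3 (7.5%) were higher and 5 (12.5%) lower at an unadjusted p under 0.05, and the median was −0.05; after rescaling 7 (17.5%) were higher and 3 lower, beside 6.62% and 7.05% of all tested unigenes. As deposited, 4.04% of all tested unigenes were higher and 10.4% lower. Of 22 antioxidant unigenes 1 (4.55%) was higher and 2 (9.09%) lower, and after rescaling 2 (9.09%) were higher and 0 lower. The higher one, catalase-like TRINITY_DN14199_c0_g1, whose protein breaks down hydrogen peroxide, was at 28.6, 21.9 and 17.4 TPM at 41 mg/g, against 10.9, 11.99 and 13.2 TPM at 17 mg/g (log2 difference 0.83, SE 0.19, limma adjusted p = 0.181). Untreated larvae had 14.8, 31.3 and 24.5 TPM, so the lower dose was the low one.

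Digestive and energy lists held no call. The median log2 difference was −0.18 for plant cell wall and carbohydrate digestion, −0.11 for cathepsins and exopeptidases and −0.18 for oxidative phosphorylation. Single members of these lists ranged from −1.01 to 2.87. The shares of all tested unigenes to read the lists against are 4.04% higher and 10.4% lower as deposited, and 6.62% higher and 7.05% lower after rescaling. Of 52 tested unigenes for plant cell wall and carbohydrate digestion 1 (1.92%) was higher and 12 (23.1%) lower at an unadjusted p under 0.05, and after rescaling 2 (3.85%) were higher and 8 (15.4%) lower. As deposited, the sum over the list was 9027, 10428 and 9873 TPM at 41 mg/g, against 12271, 13041 and 10907 TPM at 17 mg/g. The doses did not overlap (exact permutation p = 0.1, the smallest that 3 against 3 libraries can give). Sums were not rescaled, and the scale factors of the 6 libraries ran from 0.911 to 1.1, so the lack of overlap holds only as deposited. The polygalacturonase-like TRINITY_DN15820_c0_g1, of a family that cuts pectin, was at 674, 950 and 740 TPM at 41 mg/g, against 1210, 1305 and 1042 TPM at 17 mg/g (log2 difference −0.60, SE 0.17, limma adjusted p = 0.228). Untreated larvae, at 1145, 1089 and 1021 TPM, stood nearer the lower dose.

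Of 83 cathepsins and exopeptidases 1 (1.2%) was higher and 15 (18.1%) lower, and after rescaling 1 (1.2%) and 12 (14.5%). Their summed TPM overlapped, with a mean of 68231 ± 3245 at 41 mg/g and 67290 ± 4162 at 17 mg/g (SD, n = 3 each). The carboxypeptidase B-like TRINITY_DN13604_c0_g1 was at 66.9, 51.4 and 57.6 TPM at 41 mg/g, against 92.1, 97.99 and 88.9 TPM at 17 mg/g (log2 difference −0.66, SE 0.12, limma adjusted p = 0.151). The abundant cathepsin L unigenes did not share this. TRINITY_DN14638_c0_g1, named after its values were seen, was at 16864, 18294 and 18947 TPM at 41 mg/g, against 17371, 17230 and 16150 TPM at 17 mg/g. Of 58 oxidative phosphorylation unigenes, subunits of the mitochondrial respiratory chain and ATP synthase, 0 were higher and 16 (27.6%) lower, with a median of −0.18, and after rescaling 9 (15.5%) were lower with a median of −0.09. Their summed TPM ran the other way and overlapped, with a mean of 23904 ± 3798 at 41 mg/g and 21158 ± 4523 at 17 mg/g (SD, n = 3 each). The ATP synthase delta subunit TRINITY_DN8301_c0_g1 was at 149, 131 and 135 TPM at 41 mg/g, against 187, 179 and 180 TPM at 17 mg/g (−0.40, SE 0.09, adjusted p = 0.181).

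**Figure D5:**
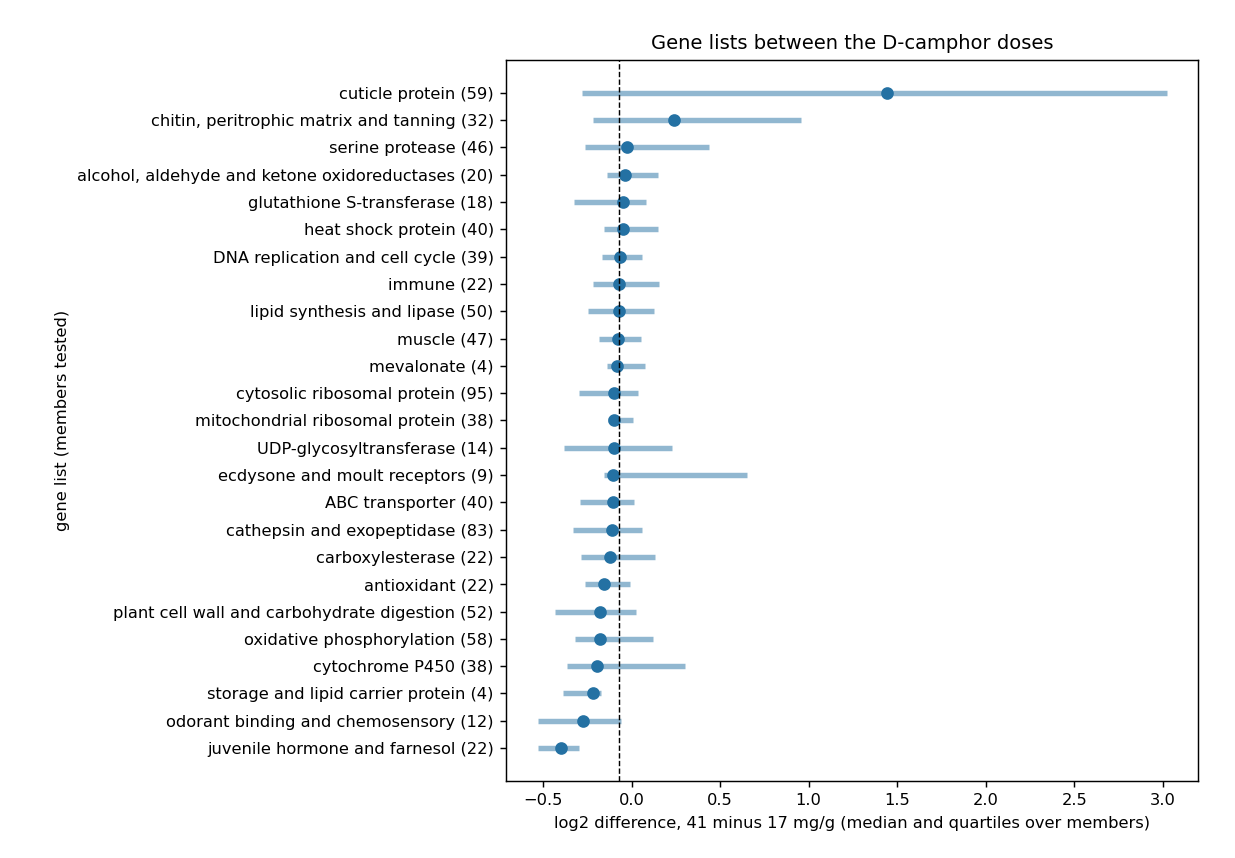
Median (point) and quartiles (bar) of the log2 difference between 41 and 17 mg/g over the tested members of 25 gene lists, with the number tested in brackets. The dashed line is the median of all tested unigenes, −0.07; the cuticle protein list lies highest at 1.44 and the juvenile hormone and farnesol list lowest at −0.40.

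Counts in the remaining lists are at an unadjusted p under 0.05, where 4.04% of all tested unigenes were higher and 10.4% lower. Muscle unigenes, which mark that tissue, had a median of −0.08 with 0 higher and 4 (8.51%) lower of 47. Cytosolic ribosomal proteins had −0.10 with 5 (5.26%) higher and 4 (4.21%) lower of 95. Mitochondrial ribosomal proteins had −0.10 with 0 higher and 2 (5.26%) lower of 38. DNA replication unigenes had −0.06 with 0 higher and 1 (2.56%) lower of 39. Immune unigenes had a median of −0.07 with 2 (9.09%) higher and 0 lower of 22. Serine proteases had −0.02 with 5 (10.9%) higher and 4 (8.7%) lower of 46. Lipid synthesis and lipase unigenes had −0.07 with 2 (4%) higher and 8 (16%) lower of 50. The 4 mevalonate enzymes had −0.08 with 0 in either direction. After rescaling, beside 6.62% and 7.05% of all tested unigenes, 3 (13.6%) immune unigenes were higher and 0 lower. Serine proteases then had 6 (13%) higher and 1 (2.17%) lower, and lipid unigenes 5 (10%) and 6 (12%). Of 12 tested odorant-binding and chemosensory unigenes 1 (8.33%) was higher and 2 (16.7%) lower, with a median of −0.27, farther from that of all tested unigenes than most lists. The higher one, odorant-binding protein 70 (TRINITY_DN17576_c0_g1), was at 3.10, 3.97 and 4.41 TPM at 41 mg/g, against 0.65, 0.68 and 1.06 TPM at 17 mg/g (log2 difference 1.42, SE 0.16, limma adjusted p = 0.0689). Of the 4 storage and lipid carrier proteins, products of the fat body, with a median of −0.22, 1 was lower: the arylphorin-like TRINITY_DN25053_c1_g1 was at 231, 203 and 239 TPM at 41 mg/g, against 322, 496 and 368 TPM at 17 mg/g (−0.79, SE 0.18, adjusted p = 0.181).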

How the data were processed

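RNA from whole larval bodies was extracted with TRIzol and made into libraries with a NEBNext Ultra kit, per the labels' protocols. The authors deposited 1 table of TPM values with 1 column per library, rounded to 2 decimals. The sources used here name no assembler, aligner or quantification tool. TPM keeps no read counts, so depth and counting precision are unknown. Column heads were matched to titles on their letter and replicate number, and the group was taken from the treatment label.

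Deposited TPM were transformed to log2(TPM + 1), and unigenes averaging 1 TPM or more over the 6 D-camphor libraries were tested with limma 3.58.1 in R 4.3.3, as 41 minus 17 mg/g, with a variance trend and 4 residual degrees of freedom. Tests were two-sided, with Benjamini-Hochberg adjustment over all tested unigenes and a threshold of 0.05. A log2 difference on this scale understates the change of low unigenes. The method was tested on simulated data.

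All 18 calls are named. Other named unigenes were drawn from the described unigenes of smallest p without overlap between doses and a mean of at least 5 TPM (up to 10 in each direction). Up to 3 members per list at an unadjusted p under 0.05 and 4 family 6 P450 unigenes were drawn on as well. Not every unigene that these rules picked is printed. Unigenes named outside these rules are marked. Members, lists and comparisons were chosen with earlier results of these data known, and list search words were corrected after the table had been seen. Lists are described by counts and medians, without set tests. Alternatives were another pseudocount, other filters, median-of-ratios scaling, a replicate block, all 15 libraries, library weights and leaving out each library. Sequences were not used here.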

Additional observations from a re-analysis of the deposited data

How the results depend on the processing

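No called unigene changed direction under any alternative, which the lack of overlap between the doses in all 18 calls largely fixed in advance. The number of calls depended on most alternatives. Against 18 calls, a pseudocount of 0.1 gave 12 (9 shared), no filter on low values 2 (both shared), a filter at 5 TPM 27 (16 shared), median-of-ratios scaling 6 (all shared), all 15 libraries 4 (1 shared) and library weights 22 (18 shared). Leaving out 1 library gave 0 to 87 calls: 87 without replicate 1 at 41 mg/g, 1 without replicate 2 and 1 without replicate 3 of that dose, and 3, 5 and 0 without replicates 1, 2 and 3 at 17 mg/g. With a replicate block 0 unigenes were called, the lowest adjusted p was 0.173, and 1463 had an unadjusted p under 0.05. Deviations of same-numbered libraries from their dose means correlated at −0.126, −0.0976 and 0.0608, and those of differently numbered libraries at −0.138 to 0.225. With 3 libraries per dose these values cannot decide whether replicate numbers pair the libraries. Unigenes at an unadjusted p under 0.05 numbered 1850, against 2814 of 33883 with no filter, 1158 of 5648 at 5 TPM and 1373 to 1863 without 1 library. The cuticle protein median lay between 0.70 and 1.94 under all alternatives. Its difference in summed TPM, 7386 with all libraries, was −6064 without replicate 2 at 41 mg/g and at most 17129, without replicate 1 at 41 mg/g. The juvenile hormone and farnesol median lay between −0.58 and −0.22. The cause of these changes was not tested beyond the smaller number of libraries or unigenes in a fit.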

Other observations

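The 3 other unigenes called in the fit to all 15 libraries, named after their values were seen, each missed the threshold in the fit to the 6 D-camphor libraries. TRINITY_DN16997_c0_g1, matched to a beetle protein described as early nodulin-75, stood at 2.78, 5.99 and 5.90 TPM at 41 mg/g, against 0.25, 0.28 and 0.08 TPM at 17 mg/g (log2 difference 2.24, limma adjusted p = 0.0695 over the 6 libraries). TRINITY_DN40441_c0_g1, a beetle protein of unknown role, stood at 3.23, 4.53 and 2.08 TPM at 41 mg/g, against 0.05, 0.32 and 0.02 TPM at 17 mg/g (1.89, adjusted p = 0.0821). TRINITY_DN2254_c0_g1, matched to a Trichinella nematode, stood at 2.56, 3.02 and 2.97 TPM at 41 mg/g, against 13.2, 31.2 and 29.7 TPM at 17 mg/g (−2.65, adjusted p = 0.0703). In the 6 libraries of larvae on EO, the first of these did not exceed 0.18 TPM and the second 0.17 TPM.

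Levels of the 9 called rises in larvae on EO were uneven between replicates. In 7 of the 9, replicate 1 at EO 30 mg/g and replicate 1 at EO 10 mg/g both lay above the other 4 EO libraries. TRINITY_DN3890_c0_g1, which has no description, was at 618, 76.8 and 33.7 TPM on EO at 30 mg/g, against 1170, 27.9 and 29.8 TPM on EO at 10 mg/g. TRINITY_DN4040_c0_g1, also without description, was at 14.5, 0.45 and 0.13 TPM on EO at 30 mg/g, against 21.9, 1.70 and 0 TPM on EO at 10 mg/g. TRINITY_DN3631_c0_g1, the skin secretory protein xP2-like unigene, was an exception and did not exceed 0.50 TPM in any EO library.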
